A study of Mus musculus with 16 samples.

Results

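The odorant receptor genes of mouse chromosome 19 were described here: genes whose symbol is Olfr and a number and whose probe set lies on that chromosome by its identifier. There were 61 of them, 1 probe set each, among 1080 odorant receptors and 19505 genes. The rule used neither their expression nor any comparison, but earlier results of these data were known when it was chosen. The tissue was olfactory mucosa from 24 mice of both sexes, 7 to 12 weeks old, that carried the S100a5-tauGFP reporter. In these mice the green fluorescent protein is under the control of S100a5, whose transcription in olfactory sensory neurons follows their activity. Mice stayed singly for 40 h in chambers at 3.1 L per min, and from 26 h on received octanoic acid or filtered air for 10 s every 20 min. Mucosa of 3 mice was pooled and sorted, so each of 4 pools per treatment gave 1 GFP+ and 1 GFP- sample. The 4 groups, of 4 arrays each, were GFP+ and GFP- cells after octanoic acid and GFP+ and GFP- cells after clean air. All mice carried the reporter, and mice of a pool cannot be told apart.

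An olfactory sensory neuron transcribes 1 odorant receptor gene from 1 allele, and the receptor, coupled to a G protein, sets which odorants excite the cell and where its axon ends in the olfactory bulb. The genes lie in clusters along most chromosomes, and neighbors are often recent copies of each other. The MOR names group receptors by protein sequence. All subfamilies on chromosome 19 belong to class II, whereas many receptors known for straight-chain carboxylic acids belong to class I. RefSeq placed the 61 genes in 8 subfamilies: 30 in MOR202, 8 in MOR266, 6 each in MOR214 and MOR239, 4 in MOR212, 3 each in MOR215 and MOR211, and Olfr1496 alone in MOR127. Gene numbers follow the map. 47 genes held the same place in number order and in RefSeq order, and apart from 3 genes with older, low numbers none was out of order.

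Values are log2 signals, and each comparison of sorted cells is GFP+ minus GFP- of the same pool, with the SD over 4 pools. There is no sequencing depth here, so precision is set by how many pools there are. Negative-control probe sets had a median of 6.20 log2 (5.80 to 6.77 on single arrays), taken as the background. These controls spread widely, with a 95th percentile of 10.4 log2 over all arrays. A signal above the background can therefore still lie within the range of the controls. By the median, 52 of the 61 receptors had a mean signal above the background. A group counted as at the background where its mean was less than 1 SD above it. A fold against such a group is a lower bound, computed with arrays under the background raised to it, and no fold is given where both groups were there. Signals of different probe sets are not compared with each other. S100a5 was higher in GFP+ cells by 1.53 ± 0.52 log2 with octanoic acid and by 1.32 ± 0.22 with clean air (SD, n = 4 pools each), which is what the sort selected. Omp, the marker of mature olfactory neurons, was bright in both sorted groups and did not pass the test (0.17 ± 0.10 with octanoic acid and 0.13 ± 0.17 with clean air). Of 19 markers of mature neurons, Omp among them, 4 were higher in GFP+ cells with either treatment and none was lower. These 4 were Ano2, Pde1c, Pde4a and Ckb, and the median of the list was 0.23 log2 with octanoic acid and 0.26 with clean air. GFP- samples also held other cells: 11 of 11 measured leukocyte markers were lower in GFP+ cells with either treatment, with a median of -6.10 log2 with octanoic acid and -5.56 with clean air. Of 10 markers of immature neurons 5 were lower with either treatment, among them Gap43 by -2.79 log2 with octanoic acid and -3.15 with clean air. Their part in the receptor differences was not tested. The GFP+ array of octanoic acid pool 3 correlated least with its group (r = 0.980 over genes, against 0.989 or more for the others), and the GFP- array of clean air pool 4 had the highest background.

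The enrichment with octanoic acid asks which of these receptors are carried by reporter-positive neurons of odor-exposed mice. The receptors divided into opposite groups: 21 of 61 stood higher in GFP+ cells and 24 lower (limma, adjusted p under 0.05 over all genes), against a background of 6.26% of all genes higher and 10.9% lower. The differences reached from -7.13 log2 for Olfr1447 to 3.31 log2 for Olfr1463. Their median was 0.01 log2, beside 0.28 for the 1019 other receptors and 0.11 for all genes. With each array centred on its median it was 0.31, beside 0.42 for all genes, and over the 52 receptors above the background it was -0.21. Shares of the chromosome 19 receptors called higher and lower were 34.4% and 39.3%, and those of the other receptors were 36.2% and 24.1%, a difference that was not tested. With octanoic acid pool 3 and clean air pool 4 left out, 20 were higher and 22 lower. Scaling moved the counts over all genes far more: with each array centred on its median 7791 genes were higher and 1715 lower, against 1221 and 2126 as deposited. Signals of GFP+ and GFP- arrays did not overlap for 40 of the 61 receptors, against 17.9% of all genes. In bulk samples like these, fewer cells that express a receptor and less of its RNA per cell cannot be told apart.

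The same was asked of mice given clean air. There 20 receptors stood higher in GFP+ cells and 23 lower, where 5.83% of all genes were higher and 9.58% lower. The median was 0.03 log2, beside 0.46 for the other receptors and 0.11 for all genes (with array centring 0.30, beside 0.38 for all genes, and -0.11 over the receptors above the background), and 40 receptors had no overlap between the sorted groups (20.5% of all genes). Without octanoic acid pool 3 and clean air pool 4 there were 18 higher and 22 lower receptors, and with each array centred on its median 6082 of all genes were higher and 1571 lower, against 1138 and 1868. 19 receptors were higher and 23 were lower with both treatments, none had opposite calls, and 15 were called with neither. Olfr1423, Olfr1472 and Olfr1487 passed with octanoic acid alone and Olfr1465 with clean air alone, which does not show that the treatments differ for them. Olfr1472 was not called in 5 of the 8 fits that left out 1 pool (adjusted p up to 0.184 without octanoic acid pool 3), nor under any of the 3 other scalings (up to 0.0817) or with arrays raised to the background (0.154). Olfr1465 was not called in 4 of 8 fits, each clean air pool in turn (adjusted p up to 0.113 without pool 4), nor with receptor centring (0.355) or arrays raised to the background (0.616). Over the 8 pools 21 receptors were above 0 in every pool, 23 were below 0 in every pool, and 17 went both ways. Neither these counts nor those of receptors called with both treatments were made over all genes.

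**Figure D1:**
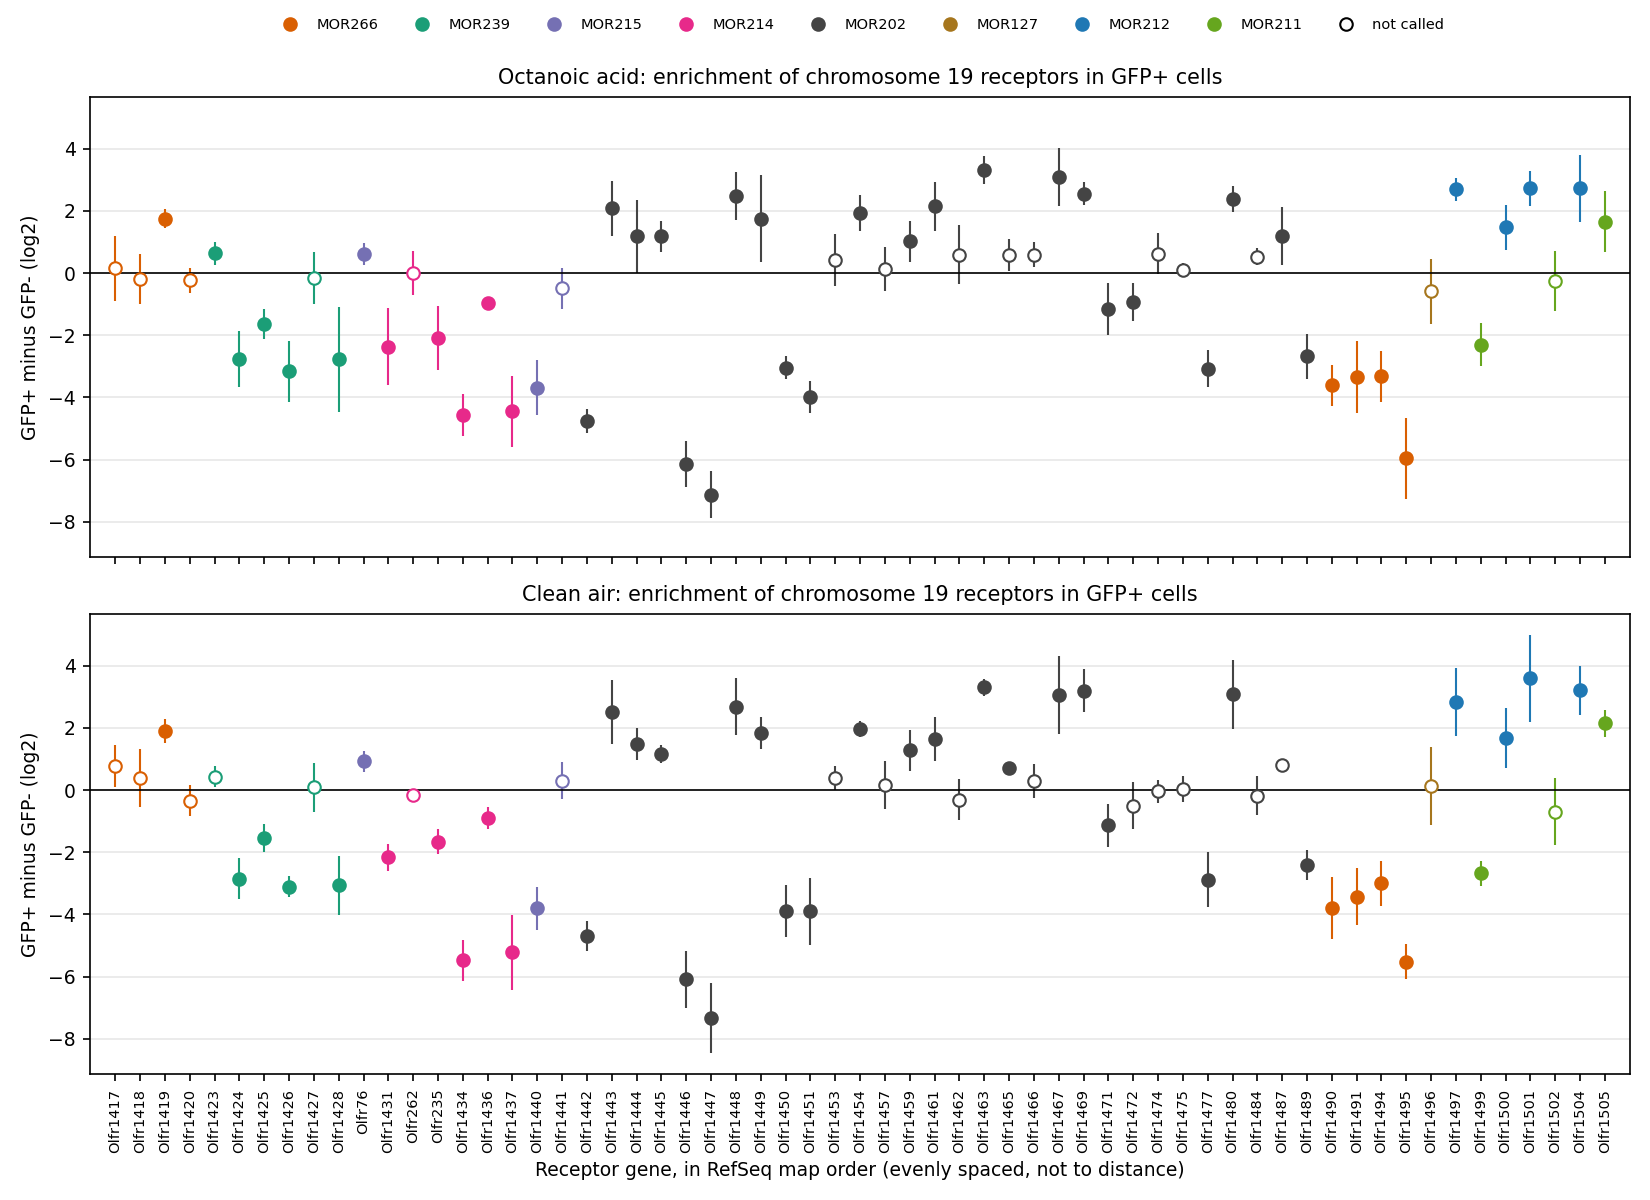
GFP+ minus GFP- difference (log2; mean and SD of 4 pools) of the 61 receptors in map order, with octanoic acid above and clean air below; colors are subfamilies and open circles did not pass the test. Values run from -7.13 to 3.31 with octanoic acid and from -7.33 to 3.60 with clean air, and neighbors such as Olfr1489 to Olfr1495 lie together below 0.

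Counted by fold, or by its lower bound where 1 sorted group was at the background, 17 lower and 10 higher receptors passed 4-fold with octanoic acid, as did 18 lower and 10 higher with clean air. By the log2 difference alone, called or not, 20 lower and 10 higher receptors passed 4-fold with octanoic acid. Of all 19505 genes 803 lower and 146 higher did, and of the 1019 other receptors 153 and 133. With clean air these counts were 19 and 10 receptors, 718 and 181 of all genes, and 143 and 167 of the other receptors. Past 16-fold were the lower bounds of Olfr1446, Olfr1447 and Olfr1495 with either treatment and of Olfr1437 with clean air, all 4 of them lower in GFP+ cells. By the log2 difference alone 6 receptors were past 16-fold lower with octanoic acid, against 265 of all genes and 60 of the other receptors. With clean air 6 receptors were, against 224 and 59. Among the 23 that were lower with both treatments, 13 had GFP+ cells at the background in both. Among the 19 that were higher with both, 4 had GFP- cells at the background in both. Olfr262, Olfr1441, Olfr1453, Olfr1457, Olfr1462, Olfr1465 and Olfr1475 were at the background in all 4 groups, and Olfr1445 was also there in both groups with octanoic acid. The calls of Olfr1465 with clean air and Olfr1445 with octanoic acid therefore rest on signals at the background.

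The map begins with 4 MOR266 receptors, Olfr1417 to Olfr1420. Only Olfr1419 of these passed, and it was higher in GFP+ cells. It had GFP+ signals of 9.61, 9.61, 8.92 and 9.65 log2 against GFP- signals of 7.83, 7.48, 7.50 and 7.96 after octanoic acid. After clean air the GFP+ signals were 9.50, 9.79, 9.47 and 9.88 against GFP- signals of 7.79, 7.83, 7.95 and 7.46. All 8 GFP+ arrays lay above all 8 GFP- arrays, with differences of 1.76 ± 0.29 and 1.90 ± 0.39 log2, or 3.38-fold with octanoic acid and 3.72-fold with clean air (limma, adjusted p = 2.44e-05 and 1.47e-05). Olfr1420 had GFP+ signals of 12.91, 13.07, 12.84 and 13.22 log2 against GFP- signals of 13.29, 13.03, 13.56 and 13.06 after octanoic acid. The groups overlapped, and its differences of -0.23 ± 0.41 with octanoic acid and -0.34 ± 0.51 with clean air did not pass.

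The other 4 MOR266 receptors, Olfr1490, Olfr1491, Olfr1494 and Olfr1495, lie at the far side of the MOR202 genes, and all 4 were lower in GFP+ cells with both treatments. Their median was -3.47 log2 with octanoic acid and -3.61 with clean air, beside -0.02 and 0.58 for the first 4. Olfr1495 had GFP+ signals of 6.41, 4.69, 6.14 and 5.82 log2 against GFP- signals of 11.72, 12.60, 11.40 and 11.18 after octanoic acid. The clean air arrays read 5.97, 6.61, 6.02 and 5.64 in GFP+ cells, against 12.25, 11.73, 11.65 and 10.68 in GFP- cells. Every GFP+ array was near or under the background and every GFP- array far above it, so Olfr1495 was lower by at least 39.9 times after octanoic acid (-5.96 ± 1.30 log2, adjusted p = 6.65e-07) and at least 35.5-fold lower with clean air (-5.52 ± 0.57, adjusted p = 1.44e-06). Olfr1490 was lower by at least 8.47 times after octanoic acid and 6.80-fold with clean air, and Olfr1491 at least 3.80-fold and 5.12-fold. Olfr1494 stayed above the background in GFP+ cells and was 9.96-fold lower with octanoic acid and 8.0-fold lower with clean air. Olfr1489, the last MOR202 gene before them, was lower as well, at -2.68 ± 0.73 and -2.41 ± 0.48 log2, so 5 consecutive genes were lower with both treatments.

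Of the 6 MOR239 receptors, Olfr1423 to Olfr1428, 4 were lower with both treatments. Olfr1428 had GFP+ signals of 9.34, 12.89, 12.60 and 11.02 log2 against GFP- signals of 14.43, 14.12, 14.44 and 13.97 after octanoic acid. In clean air pools GFP+ cells gave 10.12, 10.81, 11.97 and 11.72, and GFP- cells 14.34, 14.25, 14.33 and 13.94. GFP- arrays of Olfr1428 were close together and GFP+ arrays were spread over several log2 units, but none overlapped, and the receptor was 6.85-fold lower with octanoic acid (-2.78 ± 1.70 log2, adjusted p = 0.00264) and 8.34-fold lower with clean air (-3.06 ± 0.95, adjusted p = 0.00141). Octanoic acid pool 1 had the lowest GFP+ array, and without it Olfr1428 was 4.01-fold lower (-2.01 log2). Olfr1426 was 8.95-fold lower with octanoic acid and 8.65-fold with clean air, Olfr1425 3.11-fold and 2.93-fold, and Olfr1424 at least 5.99-fold and 5.59-fold. Olfr1423 had GFP+ signals of 14.10, 14.70, 13.84 and 14.42 log2 against GFP- signals of 13.50, 13.88, 13.70 and 13.45 after octanoic acid. Its groups overlapped by 1 array and the difference of 0.63 ± 0.36 passed (adjusted p = 0.0333), but not without octanoic acid pool 1, 2 or 4 (adjusted p up to 0.156), and the 0.43 ± 0.34 with clean air did not (adjusted p = 0.154).

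In the next stretch the MOR214 genes lie together, with Olfr76 of MOR215 before them and Olfr1440 and Olfr1441 of MOR215 after them. Of the 6 MOR214 receptors 5 were lower in GFP+ cells with both treatments, and Olfr262 was at the background throughout. Olfr1434 had GFP+ signals of 4.40, 4.37, 5.11 and 4.77 log2 against GFP- signals of 9.04, 9.61, 9.89 and 8.39 after octanoic acid. After clean air the GFP+ signals were 3.95, 4.78, 4.80 and 3.31 against GFP- signals of 10.39, 9.79, 9.96 and 8.59. All GFP+ arrays of Olfr1434 lay under the background and all GFP- arrays above it, so it was lower by at least 7.30 times after octanoic acid (-4.57 ± 0.68 log2, adjusted p = 3.67e-07) and at least 10.1-fold lower with clean air (-5.47 ± 0.66, adjusted p = 1.21e-07).

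Olfr1437 had GFP+ signals of 4.73, 8.17, 6.24 and 6.66 log2 against GFP- signals of 10.48, 11.18, 10.99 and 10.94 after octanoic acid. The clean air arrays read 4.91, 7.77, 5.38 and 4.65 in GFP+ cells, against 11.01, 11.19, 11.05 and 10.35 in GFP- cells. Pool 2 was the highest of the GFP+ arrays in both treatments, and no GFP+ array reached the GFP- arrays. Olfr1437 was lower by at least 15.5 times after octanoic acid (-4.45 ± 1.14 log2) and at least 18.2-fold lower with clean air (-5.22 ± 1.21). Olfr1431 was 5.18-fold lower with octanoic acid and 4.5-fold with clean air, Olfr235 4.22-fold and 3.17-fold, and Olfr1436 at least 1.69-fold and 1.52-fold.

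The 3 MOR215 receptors each had another call. Olfr1440, known as a receptor for the musk odorant muscone, was lower in GFP+ cells. It had GFP+ signals of 8.37, 9.94, 8.81 and 9.32 log2 against GFP- signals of 12.84, 12.73, 13.24 and 12.38 after octanoic acid. In clean air pools GFP+ cells gave 8.31, 9.57, 9.50 and 8.51, and GFP- cells 12.90, 13.14, 12.50 and 12.58. Both groups were above the background and did not overlap in either treatment: Olfr1440 was 12.9-fold lower with octanoic acid (-3.68 ± 0.89 log2, adjusted p = 5.88e-06) and 14-fold lower with clean air (-3.81 ± 0.68, adjusted p = 4.99e-06). Olfr76 was higher, by 0.61 ± 0.35 and 0.92 ± 0.35 log2 (adjusted p = 0.0373 with octanoic acid and 0.00382 with clean air), but with octanoic acid not without pool 1, 2 or 3 (adjusted p up to 0.143), and with receptor centring in neither (0.0723 and 0.0528). Olfr1441 was at the background. In number order Olfr1428, Olfr1431, Olfr1434, Olfr1436, Olfr1437 and Olfr1440 are 6 consecutive receptors that were lower with both treatments. In RefSeq order Olfr76 and Olfr262 stand among them, and the unbroken run is the 5 genes from Olfr235 to Olfr1440.

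**Figure D2:**
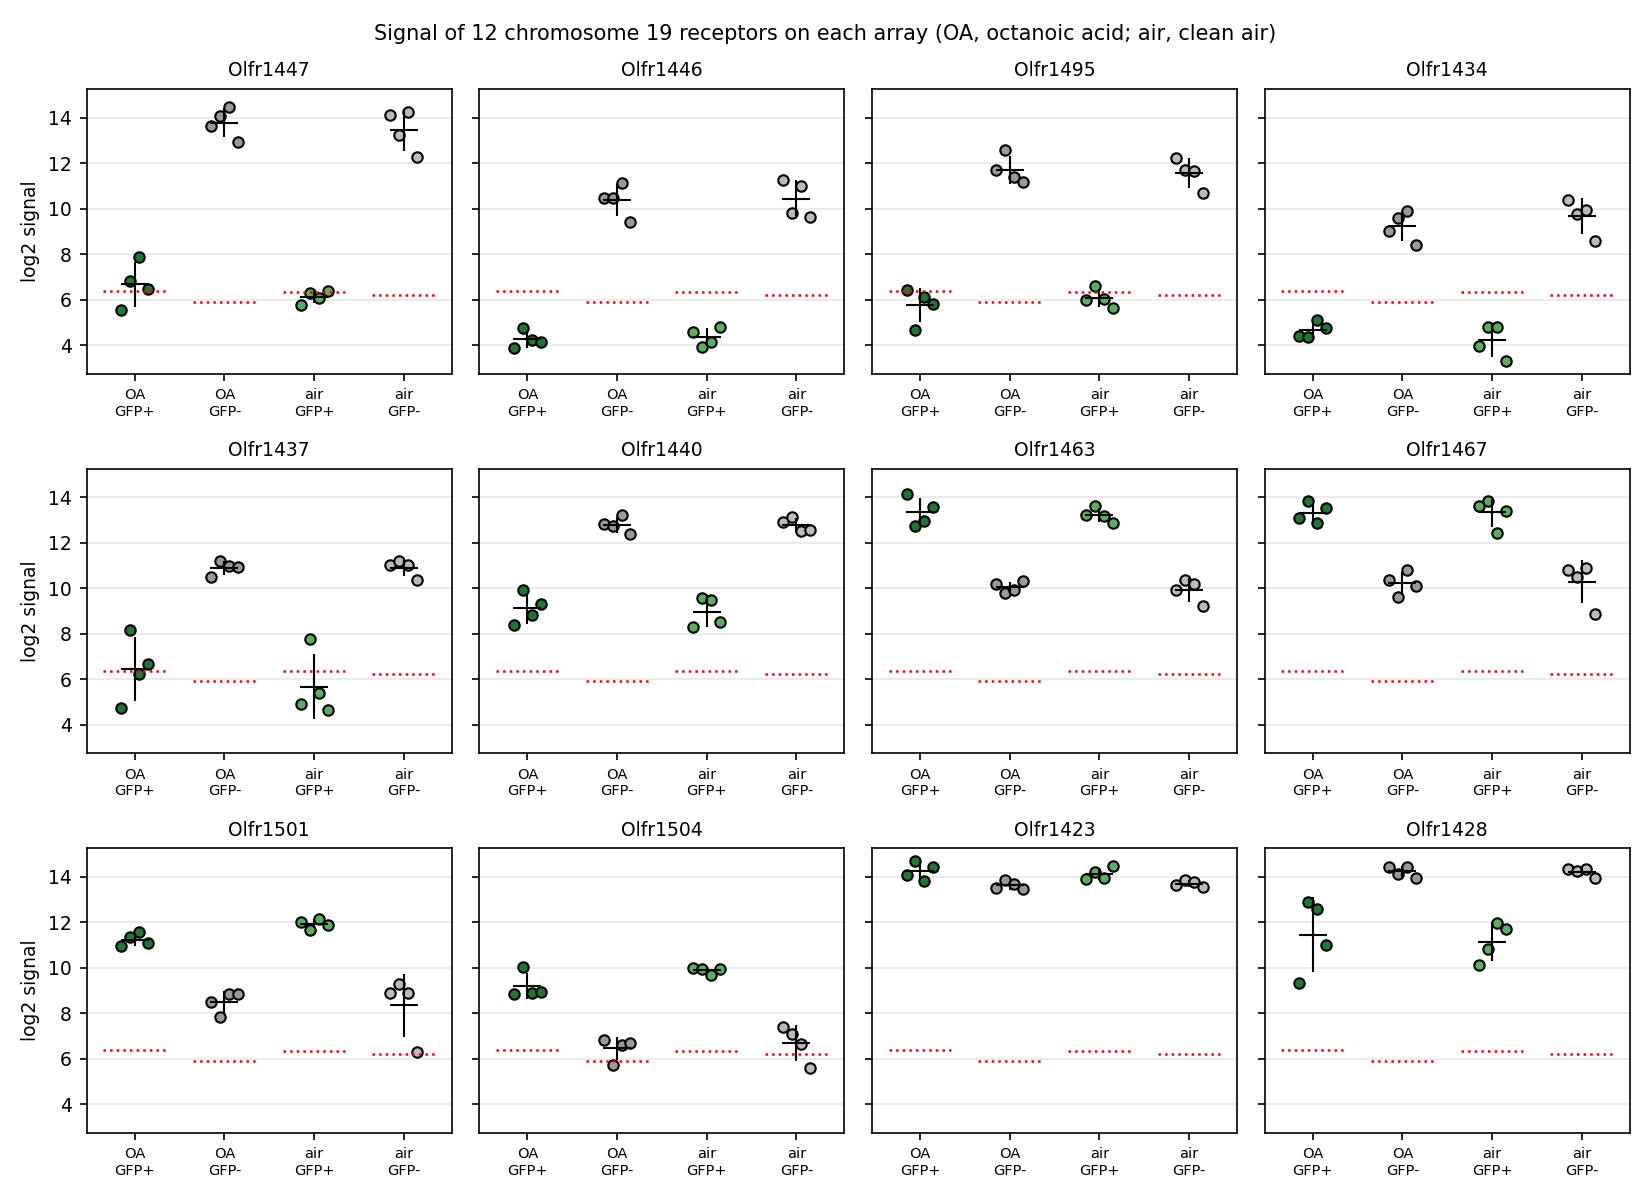
Log2 signal on each array of 12 receptors in the 4 groups (OA, octanoic acid; air, clean air); points are pools 1 to 4, bars the mean and SD, and dotted red lines the mean background of the group. GFP+ arrays of Olfr1446 and Olfr1434 lie under the background in both treatments, whereas Olfr1440 has GFP+ signals of 8.31 to 9.94 that stay above it, and Olfr1463 and Olfr1467 have GFP+ arrays above all GFP- arrays.

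The 30 MOR202 receptors, from Olfr1442 to Olfr1489, held the lowest differences of the chromosome and, with octanoic acid, the highest. With octanoic acid 13 were higher, 9 were lower and 8 did not pass. With clean air 13 were higher, 8 were lower and 9 did not pass. From the lowest to the highest receptor the subfamily spanned 10.4 log2 units with octanoic acid and 10.6 with clean air. Direction alternated among the first of them. Olfr1443, Olfr1444 and Olfr1445 were higher, Olfr1446 and Olfr1447 lower, Olfr1448 and Olfr1449 higher, and Olfr1450 and Olfr1451 lower, in each case with both treatments. Some of these calls were lost when 1 pool was left out. Olfr1444 was not called with octanoic acid without octanoic acid pool 2 or 4 or clean air pool 2 or 3 (adjusted p up to 0.203), nor with clean air without clean air pool 3 or 4 (up to 0.0953). With arrays raised to the background, the clean air calls of Olfr1444 (adjusted p = 0.118) and Olfr1445 (0.0735) were both lost. Olfr1449 was not called with octanoic acid without pool 2 or 4 (up to 0.0673). Further along, Olfr1459 was higher by 2.04-fold with octanoic acid and 2.42-fold with clean air, but not without octanoic acid pool 1 or 2 (adjusted p up to 0.108) or clean air pool 4 (0.0511).

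Olfr1446 and Olfr1447 are neighbors with nearly the same sequence before the coding start. RefSeq windows of 300 bases, 250 before the start of the gene model and 50 from it on (GRCm38.p6, 5′ to 3′), are shown because these 2 genes carry the lowest values on the chromosome. Capitals mark bases that differ from the other gene or stand against a gap in the alignment.
Olfr1446 (chr19:12890526-12890825, minus strand): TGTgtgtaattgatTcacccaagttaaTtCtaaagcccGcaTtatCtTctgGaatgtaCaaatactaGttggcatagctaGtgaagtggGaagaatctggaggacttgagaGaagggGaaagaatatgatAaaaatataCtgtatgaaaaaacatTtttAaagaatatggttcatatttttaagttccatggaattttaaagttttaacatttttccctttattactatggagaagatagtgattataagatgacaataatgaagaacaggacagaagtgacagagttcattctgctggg
Olfr1447 (chr19:12901729-12902028, minus strand): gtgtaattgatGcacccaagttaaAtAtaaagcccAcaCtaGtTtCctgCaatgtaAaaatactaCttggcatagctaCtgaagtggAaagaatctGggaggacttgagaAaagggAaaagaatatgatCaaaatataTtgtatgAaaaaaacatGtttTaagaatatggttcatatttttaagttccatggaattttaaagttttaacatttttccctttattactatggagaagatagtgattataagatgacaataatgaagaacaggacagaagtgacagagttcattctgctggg
The 250 bases were 90.5% identical and the first 50 coding bases were identical, while the median over all 1653 pairs of receptors with an entry was 51.5%. Of the 61 receptors 58 had an entry, all but Olfr1425, Olfr1454 and Olfr1469. In 50 of the 58 the gene model starts at the start codon, so the window precedes the coding sequence and need not hold a promoter.

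Olfr1447 had GFP+ signals of 5.53, 6.81, 7.88 and 6.46 log2 against GFP- signals of 13.66, 14.09, 14.49 and 12.95 after octanoic acid. After clean air the GFP+ signals were 5.78, 6.27, 6.10 and 6.38 against GFP- signals of 14.11, 13.25, 14.24 and 12.27. All GFP- arrays were bright, and the mean of GFP+ cells was less than 1 SD above the background. After octanoic acid the GFP+ arrays of pools 2, 3 and 4 were above their own background, pool 3 the most, and that of pool 1 was under it. Olfr1447 was lower by at least 124 times after octanoic acid (-7.13 ± 0.75 log2, adjusted p = 1.37e-07) and at least 139-fold lower with clean air (-7.33 ± 1.14, adjusted p = 1.32e-07). Olfr1446 had GFP+ signals of 3.88, 4.77, 4.23 and 4.13 log2 against GFP- signals of 10.49, 10.49, 11.15 and 9.43 after octanoic acid. The clean air arrays read 4.57, 3.90, 4.14 and 4.79 in GFP+ cells, against 11.28, 9.82, 11.01 and 9.65 in GFP- cells. Its GFP+ arrays were all under the background, and it was lower by at least 16.3 times after octanoic acid (-6.14 ± 0.76 log2) and 17.1-fold with clean air (-6.09 ± 0.92).

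Further MOR202 receptors that were lower had smaller differences. Olfr1442 was lower by at least 12.4 times after octanoic acid (-4.75 ± 0.40 log2) and 13.7-fold with clean air (-4.69 ± 0.49). Olfr1451 was lower by at least 12.4 and 9.78 times (-3.99 ± 0.52 and -3.91 ± 1.07). Olfr1450 was lower by at least 3.94 and 4.61 times (-3.04 ± 0.36 and -3.91 ± 0.84). Olfr1477 stayed above the background in GFP+ cells and was 8.44-fold lower with octanoic acid and 7.39-fold with clean air.

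Olfr1463 stood at the other end. It had GFP+ signals of 14.15, 12.74, 12.97 and 13.57 log2 against GFP- signals of 10.19, 9.78, 9.91 and 10.30 after octanoic acid. In clean air pools GFP+ cells gave 13.23, 13.61, 13.20 and 12.89, and GFP- cells 9.91, 10.38, 10.20 and 9.22. The groups were more than 2 log2 units apart in either treatment, and the receptor was 9.94-fold higher with octanoic acid (3.31 ± 0.45 log2, adjusted p = 2.38e-07) and 9.89-fold higher with clean air (3.31 ± 0.28, adjusted p = 2.75e-07).

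Olfr1467 had GFP+ signals of 13.08, 13.84, 12.87 and 13.54 log2 against GFP- signals of 10.38, 9.61, 10.80 and 10.11 after octanoic acid. After clean air the GFP+ signals were 13.64, 13.86, 12.45 and 13.42 against GFP- signals of 10.81, 10.52, 10.91 and 8.89. No GFP- array reached a GFP+ array, and Olfr1467 was 8.62-fold higher with octanoic acid (3.11 ± 0.93 log2) and 8.34-fold higher with clean air (3.06 ± 1.24). Olfr1469 was 5.87-fold higher with octanoic acid and at least 7.72-fold with clean air, Olfr1480 5.21-fold and 8.47-fold, and Olfr1448 5.59-fold and 6.38-fold. For Olfr1480 the GFP- array of clean air pool 4 read 6.22 log2, under its own background of 6.77. That pool had a difference of 4.68 log2, and the other clean air pools had 2.17 to 2.90. Olfr1484 was 0.54 ± 0.28 log2 with octanoic acid and -0.18 ± 0.63 with clean air and passed in neither. In the second part of the subfamily, the 18 receptors from Olfr1457 to Olfr1489, the range was 6.39 log2 units with octanoic acid, against 9.61 for the 12 up to Olfr1454.

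Beyond Olfr1496, which did not pass (-0.58 ± 1.05 log2 with octanoic acid and 0.12 ± 1.26 with clean air), the map ends with MOR212 and MOR211 genes in mixed order. All 4 MOR212 receptors, Olfr1497, Olfr1500, Olfr1501 and Olfr1504, were higher in GFP+ cells with both treatments, with a median of 2.71 log2 with octanoic acid and 3.02 with clean air. Olfr1501 and Olfr1504, separated by Olfr1502, were 92.4% identical over the 250 bases. Their windows are shown as an example of similar genes with similar enrichment, with capitals as above.
Olfr1501 (chr19:13839122-13839421, minus strand): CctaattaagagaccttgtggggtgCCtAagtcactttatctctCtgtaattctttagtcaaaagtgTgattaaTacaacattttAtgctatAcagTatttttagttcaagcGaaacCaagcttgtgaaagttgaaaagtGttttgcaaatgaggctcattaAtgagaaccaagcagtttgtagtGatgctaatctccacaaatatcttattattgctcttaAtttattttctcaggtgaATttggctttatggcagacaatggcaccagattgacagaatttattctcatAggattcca
Olfr1504 (chr19:13888159-13888458, minus strand): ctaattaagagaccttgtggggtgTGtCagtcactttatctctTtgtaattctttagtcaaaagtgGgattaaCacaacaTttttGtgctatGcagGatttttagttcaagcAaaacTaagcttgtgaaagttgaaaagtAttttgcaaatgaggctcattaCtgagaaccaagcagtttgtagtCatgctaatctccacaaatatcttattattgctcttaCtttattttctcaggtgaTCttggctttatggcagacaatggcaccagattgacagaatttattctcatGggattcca
Olfr1501 had GFP+ signals of 10.94, 11.34, 11.58 and 11.11 log2 against GFP- signals of 8.51, 7.83, 8.83 and 8.87 after octanoic acid. The clean air arrays read 12.04, 11.67, 12.15 and 11.90 in GFP+ cells, against 8.89, 9.29, 8.90 and 6.29 in GFP- cells. Sorted groups did not overlap, and the low GFP- array of clean air pool 4 is the one with the highest background. Olfr1501 was 6.65-fold higher with octanoic acid (2.73 ± 0.56 log2, adjusted p = 0.000530) and 12.1-fold higher with clean air (3.60 ± 1.40, adjusted p = 6.59e-05). Without clean air pool 4, whose GFP- array lay under its own background of 6.77, it was 7.58-fold higher with clean air (2.92 log2). Olfr1504 had GFP+ signals of 8.85, 10.05, 8.90 and 8.95 log2 against GFP- signals of 6.84, 5.71, 6.62 and 6.69 after octanoic acid. In clean air pools GFP+ cells gave 10.00, 9.96, 9.68 and 9.95, and GFP- cells 7.40, 7.09, 6.66 and 5.58. Its GFP- arrays were close to the background, and it was 6.61-fold higher with octanoic acid (2.72 ± 1.08 log2) and at least 7.56-fold with clean air (3.21 ± 0.79). Olfr1497 was at least 5.84-fold higher with octanoic acid and 5.52-fold with clean air, and Olfr1500 2.77-fold and 3.20-fold. Without octanoic acid pool 3 or 4 Olfr1500 was not called with octanoic acid (adjusted p up to 0.0565).

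The 3 MOR211 receptors each had another call: Olfr1505 was higher, Olfr1499 was lower and Olfr1502 did not pass, with either treatment. Olfr1505 had GFP+ signals of 9.30, 9.82, 8.50 and 8.67 log2 against GFP- signals of 7.67, 6.79, 7.77 and 7.41 after octanoic acid. After clean air the GFP+ signals were 9.43, 8.94, 9.19 and 9.33 against GFP- signals of 7.29, 7.25, 7.20 and 6.58. Its sorted groups did not overlap, and it was 3.16-fold higher with octanoic acid and 4.42-fold with clean air. Olfr1502 had GFP+ signals of 7.36, 8.06, 6.51 and 7.71 log2 against GFP- signals of 7.49, 8.31, 7.99 and 6.87 after octanoic acid. The Olfr1502 groups overlapped there and with clean air. Olfr1499 was lower by at least 1.63 times after octanoic acid and 1.68-fold with clean air, with GFP+ cells under the background. Olfr1502 and Olfr1505 were 88.0% identical over the 250 bases, and their windows are shown as similar genes with unlike enrichment.
Olfr1502 (chr19:13861545-13861844, plus strand): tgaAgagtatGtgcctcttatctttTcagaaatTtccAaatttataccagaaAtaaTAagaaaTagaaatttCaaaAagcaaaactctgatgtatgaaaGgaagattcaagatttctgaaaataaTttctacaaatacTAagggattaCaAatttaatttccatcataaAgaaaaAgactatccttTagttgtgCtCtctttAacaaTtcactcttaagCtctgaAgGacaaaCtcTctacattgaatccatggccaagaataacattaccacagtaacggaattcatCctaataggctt
Olfr1505 (chr19:13918772-13919071, plus strand): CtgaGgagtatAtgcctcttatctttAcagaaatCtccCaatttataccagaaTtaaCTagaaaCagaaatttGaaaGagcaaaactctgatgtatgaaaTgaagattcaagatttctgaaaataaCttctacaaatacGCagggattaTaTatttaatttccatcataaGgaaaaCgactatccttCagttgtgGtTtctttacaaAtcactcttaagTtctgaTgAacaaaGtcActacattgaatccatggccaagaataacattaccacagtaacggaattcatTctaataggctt

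How alike the enrichment of similar receptors was could be tested over the 8 pools. All 11 pairs with at least 75% identity over the 250 bases were compared by an exact sign-flip permutation test, two-sided, with p adjusted over the 11 pairs. The smallest p that 8 pools allow is 0.00781, and the limit of 75% was set after the values had been seen. The test takes the 8 pools as independent, whereas octanoic acid and clean air pools of the same number deviated together. With the 4 replicate numbers as the units no exact p can be below 0.125, so no pair can pass. In 8 of the 11 pairs both genes had a mean difference of the same sign, yet 9 pairs passed over the 8 pools (adjusted p under 0.05), each with 1 direction in all 4 replicate numbers. In 4 of the 11 pairs at least 1 gene had a sorted group at the background. Of the 7 others 6 passed. The remaining 3 that passed, Olfr1446 with Olfr1447, Olfr1445 with Olfr1448 and Olfr1472 with Olfr1475, compare differences that the background bounds. The most identical pair, Olfr1471 and Olfr1474 (95.2%), is shown for that reason.
Olfr1471 (chr19:13444764-13445063, plus strand): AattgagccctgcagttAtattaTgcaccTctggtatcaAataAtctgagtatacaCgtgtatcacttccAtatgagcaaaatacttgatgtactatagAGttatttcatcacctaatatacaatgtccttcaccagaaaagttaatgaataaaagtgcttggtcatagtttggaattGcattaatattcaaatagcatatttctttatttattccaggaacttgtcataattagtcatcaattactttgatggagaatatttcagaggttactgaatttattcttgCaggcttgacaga
Olfr1474 (chr19:13470722-13471021, plus strand): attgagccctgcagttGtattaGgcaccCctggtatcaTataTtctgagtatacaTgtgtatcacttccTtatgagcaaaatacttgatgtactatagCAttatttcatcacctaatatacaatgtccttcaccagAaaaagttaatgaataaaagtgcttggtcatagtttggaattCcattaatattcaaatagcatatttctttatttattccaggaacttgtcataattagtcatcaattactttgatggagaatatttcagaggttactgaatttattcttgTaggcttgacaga
Olfr1471 averaged -1.14 ± 0.71 log2 and Olfr1474 0.29 ± 0.62 (SD, n = 8 pools), and Olfr1471 was under Olfr1474 in 8 of 8 pools (exact p = 0.00781, adjusted 0.0143). Olfr1471 itself was lower with either treatment (adjusted p = 0.0245 with octanoic acid and 0.0267 with clean air), though not without octanoic acid pool 1, 3 or 4 or clean air pool 1 or 4 (adjusted p up to 0.114 with octanoic acid and 0.159 with clean air).

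Olfr1502 averaged -0.47 ± 0.97 log2 and Olfr1505 1.90 ± 0.75 over the 8 pools, and Olfr1502 was under Olfr1505 in all 8 (exact p = 0.00781, adjusted 0.0143). Olfr1463 averaged 3.31 ± 0.35 log2 and Olfr1466, 79.1% identical, 0.44 ± 0.47, also apart in all 8 pools. Olfr1480 (2.73 ± 0.86) was above Olfr1487 (0.99 ± 0.66) and Olfr1484 (0.18 ± 0.59) in all 8 pools, and these 3 genes make up 3 of the 11 pairs. Olfr1446 (-6.12 ± 0.78) was above Olfr1447 (-7.23 ± 0.90) in 7 of 8 pools (exact p = 0.0156, adjusted 0.0215), with GFP+ cells of both at the background. Olfr1501 (3.16 ± 1.09) and Olfr1504 (2.97 ± 0.91) were 0.19 ± 0.64 log2 apart and did not pass (exact p = 0.438), and Olfr1431 (-2.27 ± 0.86) and Olfr235 (-1.87 ± 0.76) -0.40 ± 0.66 apart, which did not pass either (exact p = 0.141, adjusted 0.155). Whether the probe set of a gene also binds the RNA of its similar partner was not tested.

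**Figure D3:**
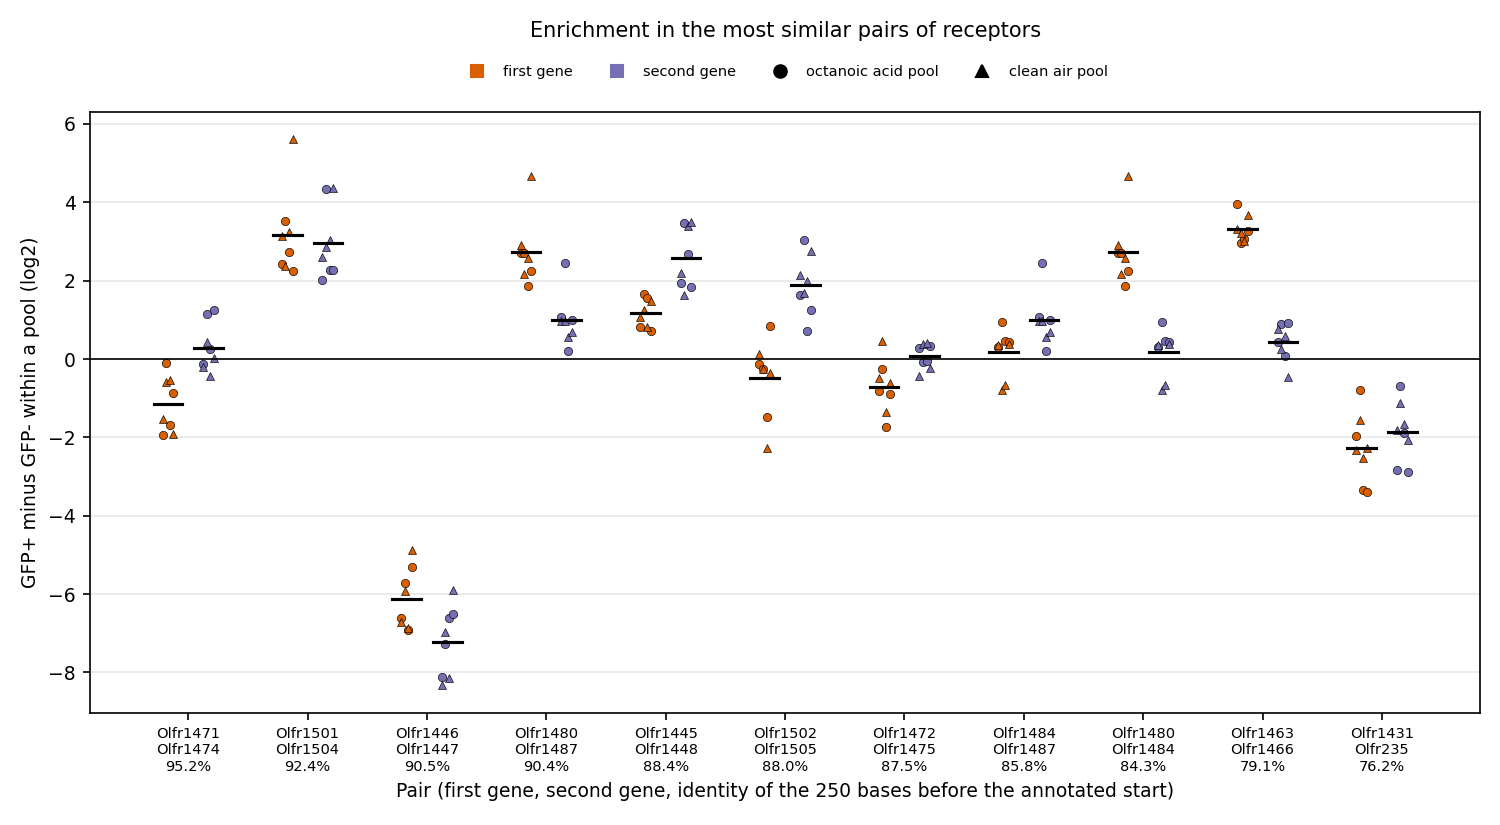
GFP+ minus GFP- difference within each of the 8 pools (log2) for the 11 most similar pairs, labelled with their identity; circles are octanoic acid pools, triangles clean air pools, and lines means over 8 pools. Olfr1446 and Olfr1447 lie together near the bottom, Olfr1501 and Olfr1504 overlap, and Olfr1502 lies under Olfr1505 in all 8 pools.

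Along the map, neighboring receptors in RefSeq order were called in the same direction with both treatments in 19 of 60 adjacent pairs and in opposite directions in 10. The median absolute gap between neighbors was 2.37 log2 over all pools, beside 2.60 over all 1830 pairs. The windows of 300 bases had a median GC content of 35.2%, against 35% for other receptors and 52.7% for all windows. They were placed by the start of the gene model, which is not always the start codon. The letters TAATTA, the core of homeodomain sites, stood on either strand in 13 of 58 windows (22.4%, against 18.4% of other receptor windows and 5.29% of all 32851 windows), of which 4 belonged to receptors higher in GFP+ cells with octanoic acid, 6 to lower ones and 3 to receptors not called. TATAAA was in 17 windows (29.3%, against 42.0% of other receptor windows and 13.6% of all windows). These matches are descriptions of letters in the windows. Of 18 measured genes known from receptor choice, only Lbr, a lamin B receptor of the nuclear envelope, was lower in GFP+ cells with both treatments (-2.54 ± 0.67 log2 with octanoic acid and -1.98 ± 0.56 with clean air). Nfia was lower with octanoic acid alone, and none was higher. GFP- samples also held other cells, and in which cells Lbr and Nfia differed was not tested.

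The question of the study, whether octanoic acid moves particular receptors into or out of the GFP+ cells, was asked with the difference of the 2 enrichments. No chromosome 19 receptor passed (limma, smallest adjusted p = 0.940), as was the case for every gene (0%). At an unadjusted p under 0.05 there were 3 of 61 receptors, or 4.92%, against 4.47% of all genes. That count was 1 to 8 with 1 pool left out, the lowest without octanoic acid pool 4 or clean air pool 1 or 3 and the highest without clean air pool 2 (3.87% of all genes), and it was 7 with the replicate block (6.2% of all genes). The octanoic acid minus clean air differences ran from -0.86 to 0.90 log2, with a median of -0.06. The smallest p-values belonged to Olfr1434 (0.90 log2, 95% interval 0.04 to 1.75), Olfr1484 (0.72, 0.03 to 1.40), Olfr1450 (0.87, 0.04 to 1.70), Olfr1441 (-0.79, -1.61 to 0.03) and Olfr1474 (0.67, -0.06 to 1.40). For Olfr1434, Olfr1450 and Olfr1441 at least 1 side of each difference lay at the background. Olfr1440 had an interval from -0.85 to 1.11 log2, which does not show equal enrichment but bounds the effect. Olfr1463 had 0.01 log2 with an interval from -0.58 to 0.59.

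**Figure D4:**
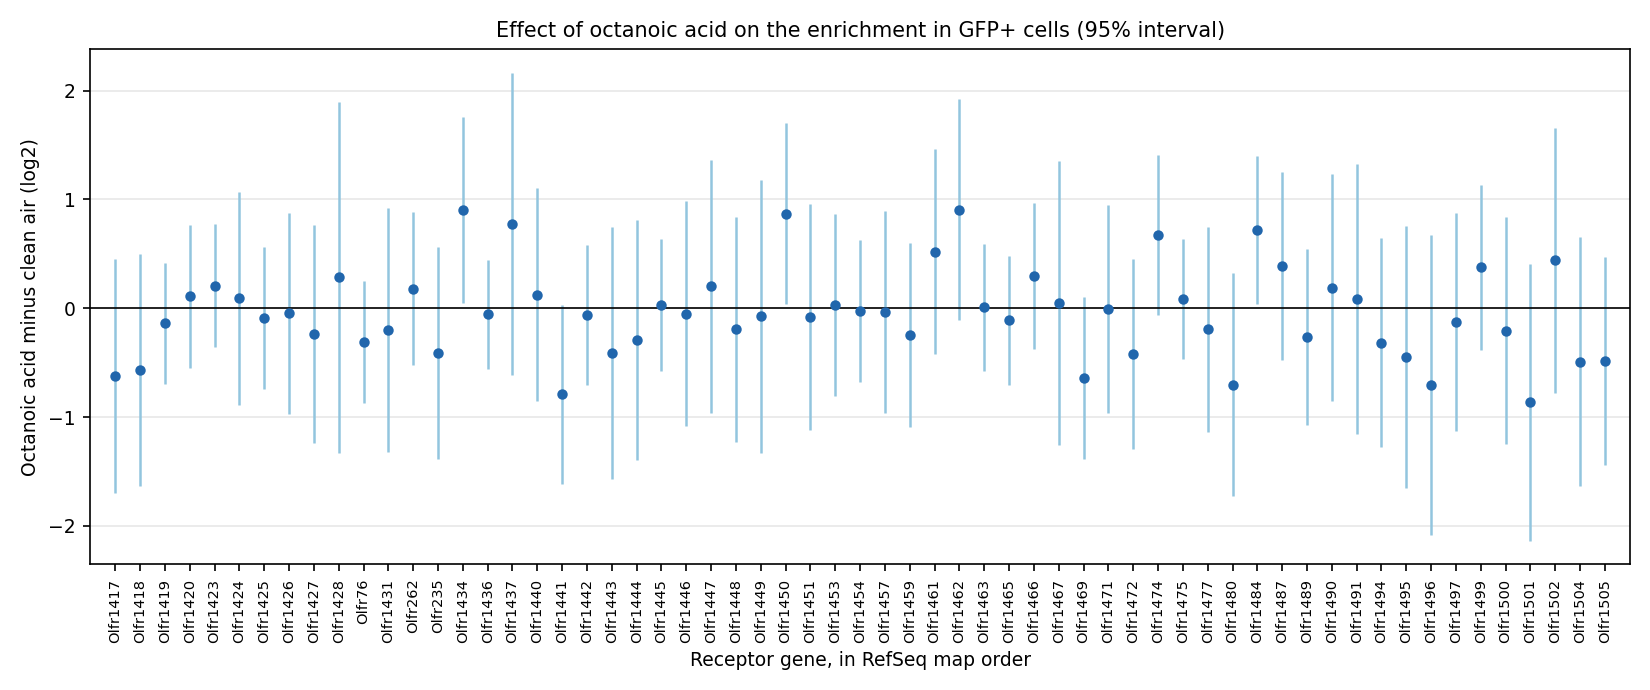
Difference between the enrichment with octanoic acid and with clean air (log2, 95% interval) of the 61 receptors in map order. Differences lie between -0.86 and 0.90, and no receptor passed after adjustment.

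Within GFP+ cells alone, octanoic acid against clean air gave 0 calls among these receptors and 0% of all genes (limma, smallest adjusted p = 0.955). At an unadjusted p under 0.05 there were 2 receptors, or 3.28%, no more than the 3.67% of all genes. These were Olfr1501 and Olfr1504, similar MOR212 genes whose probe sets were not tested for binding the RNA of each other. The count was 2 to 8 with 1 pool left out, highest without octanoic acid pool 2 (6.32% of all genes), and 5 with the replicate block (5.42%). Olfr1501 was under clean air in octanoic acid GFP+ cells by -0.70 log2 (95% interval -1.11 to -0.28, unadjusted p = 0.00347 and adjusted p = 0.955 by limma). Every octanoic acid GFP+ array of Olfr1501 given above lay under every clean air one, and such separation was not counted over all genes. Olfr1504 was at -0.71 log2 (-1.28 to -0.13), with 1 octanoic acid array above the clean air arrays. Olfr1450 at 0.66, Olfr1490 at 0.59 and Olfr1462 at 0.50 log2 followed, each with an interval that includes 0 and GFP+ signals at the background. In GFP- cells 0 receptors passed (0% of all genes, smallest adjusted p = 0.985) and 0 had an unadjusted p under 0.05, against 3.8% of all genes. With 1 pool left out 0 to 4 did, most without octanoic acid pool 3 (3.86% of all genes), and 9 did without that pool and clean air pool 4 (3.04%). The smallest p-values there belonged to Olfr1441 (0.50 log2), Olfr1453 (0.45), Olfr1484 (-0.38), Olfr1436 (0.29) and Olfr1505 (0.33).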

How the data were processed

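RNA of sorted GFP+ and GFP- cells was hybridized to 16 Clariom S arrays, 4 per group. The authors deposited a table of log2 signals for every probe set on every array; the software was Affymetrix Expression Console per the submitters' processing notes, and the summary method, background step and genome build are not given in the sources used here. The scale was read from the values (2.13 to 19.5). Of 28846 probe sets 6640 were controls, and 19572 of the other 22206 carry 1 gene symbol, none several and 2634 none. The brightest probe set of a gene was kept (19505 genes). All 19572 named probe sets matched a RefSeq gene (GRCm38.p6), which also gave MOR names, neighbor order and upstream windows.

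Within-pool log2 differences (GFP+ minus GFP-) of the 8 pools were fitted by lmFit and eBayes (limma 3.58.1, R 4.3.3; two-sided tests): the mean of each treatment, and the odor effect between treatments. GFP+ and GFP- arrays were also compared between treatments. Benjamini-Hochberg adjustment ran over all 19505 genes, with a threshold of 0.05. Labels do not say that pools were handled on separate days, so p-values measure the spread between pools of mice. The fit was tested on simulated data. For the odor effect it found 81.9% of 4-fold changes and 20.5% of 2-fold changes, so most changes of 2-fold would be missed. For the enrichment with octanoic acid it found 95.7% and 55.5%. Of the simulated calls 4.76% and 4.6% were false. The simulation changed a small set drawn from all genes, left the other genes unchanged and took pools as independent. Many more genes were called in the real enrichments, so these rates need not hold for them or for the receptors.

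Sorted samples of 1 pool share mice. Octanoic acid and clean air pools also share replicate numbers in the labels, and their deviations from the group means correlated by 0.179, 0.110, 0.237 and 0.100 in the differences, all above 0.1, by 0.371, 0.100, 0.219 and 0.138 in GFP+ cells, and by 0.408, 0.100, -0.0986 and 0.153 in GFP- cells. A replicate block on this number was an alternative.

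Genes named by rule were S100a5 and, in each enrichment, the 8 largest positive and 8 largest negative differences past the threshold, the 4 highest signals (only to choose genes to describe, since a signal also depends on its probes), Olfr1440, runs of 4 or more neighbors called alike, and the 5 smallest p in each odor comparison. Families, similar pairs, other calls lost when 1 pool was left out and receptors at the background were named after their values were seen. A planned choice of pairs by protein identity was not used, since no protein sequences were given, and pairs were chosen by upstream identity (Biopython 1.88 global alignment: match 1, mismatch -1, gap opening -2, extension -0.5) and tested in SciPy 1.17.1. The receptors and the gene lists were chosen with earlier results of these data known.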

Additional observations from a re-analysis of the deposited data

Results flagged for a closer look

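Among 126 groups of 4 pools, 7 had 1 pool whose within-pool difference lay far from the others, and chance would flag about 1 in 20 groups. With octanoic acid, pool 2 stood apart for 3 receptors: Olfr1426 at -1.70 log2 (the others -3.76 to -3.58), Olfr1495 at -7.91 (the others -5.36 to -5.26) and Olfr1504 at 4.34 (the others 2.01 to 2.28). With clean air, pool 2 stood apart for Olfr1437 at -3.43 log2 (the others -6.10 to -5.67) and for Olfr1497 at 1.22 (the others 3.20 to 3.46). Clean air pool 4 stood apart for Olfr1418 at 1.76 log2 (the others -0.27 to 0.04), and clean air pool 1 for Olfr1426 at -3.63 (the others -2.96 to -2.92). All of these receptors but Olfr1418 kept the sign of their difference in all 8 pools, and Olfr1418 was called in neither treatment.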

How the results depend on the processing

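Over all alternatives 17 to 31 receptors were higher and 22 to 24 lower with octanoic acid, and 17 to 23 were higher and 22 to 23 lower with clean air; none took the opposite call. Leaving out 1 pool gave 17 to 21 higher and 22 to 24 lower with octanoic acid (median -0.25 to 0.17 log2), and 17 to 21 higher and 22 to 23 lower with clean air (median -0.18 to 0.03). With arrays fitted by group in limma, ignoring that GFP+ and GFP- samples of a pool share mice, 18 were higher and 22 lower in either treatment. In this unpaired fit Olfr76, Olfr1444, Olfr1459, Olfr1471 and Olfr1472 lost their calls with octanoic acid (adjusted p up to 0.121). Olfr1459, Olfr1465 and Olfr1471 lost theirs with clean air (up to 0.169). Raising arrays to the background moved the octanoic acid median to 0.46 log2 (31 higher, 23 lower). It moved the median of all genes to 0.31, with 8174 higher and 1993 lower. Background was 6.21 to 6.71 log2 on octanoic acid GFP+ arrays and 5.80 to 6.02 on GFP- arrays. A gene under it everywhere therefore takes the difference of these backgrounds. The 10 receptors gained include Olfr262, Olfr1441, Olfr1453, Olfr1457, Olfr1462, Olfr1465 and Olfr1475, which were at the background in all 4 groups. Centring on array medians, quantile normalization and centring on receptors moved the median of all genes from 0.11 log2 to 0.42, 0.15 and 0.21 with octanoic acid and to 0.38, 0.13 and -0.05 with clean air, and all genes then split into 7791, 2587 and 763 higher against 1715, 2026 and 1550 lower, and into 6082, 1813 and 507 against 1571, 1783 and 1817. The replicate block between treatments left 0 calls in the 3 odor comparisons (smallest adjusted p among receptors 0.781 for the odor effect, 0.826 in GFP+ and 0.915 in GFP- cells) and, like every other alternative, changed no call there.

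Signs turned under at least 1 alternative for 8 receptors with octanoic acid and 9 with clean air, none of them called. With octanoic acid they were Olfr1417, Olfr1418, Olfr1427, Olfr1441, Olfr1457 and Olfr262 (Olfr1418 and Olfr1427 at 0.20 and 0.24 log2 without octanoic acid pool 3, Olfr262 at -0.25 without pool 4), Olfr1420 (0.0757 with array centring) and Olfr1502 (0.0533 with array centring, -0.62 to 0.16 with 1 octanoic acid pool left out, above 0 without pool 3, and 0.16 without that pool and clean air pool 4, a setting chosen after seeing the data). With clean air they were Olfr1418, Olfr1427, Olfr1457, Olfr1462, Olfr1496 and Olfr262 (Olfr1418, Olfr1427 and Olfr1496 at -0.0867, -0.18 and -0.30 without clean air pool 4), Olfr1484 (0.0886 with array centring, -0.37 to 0.0190 with 1 clean air pool left out, above 0 without pool 2), Olfr1474 (0.23 with array centring, -0.20 to 0.0883 with 1 pool left out, above 0 without pool 1 or 3) and Olfr1475 (-0.13 with receptor centring, -0.10 to 0.19 with 1 pool left out, below 0 without pool 2 or 3). With arrays raised to the background, Olfr1441 turned to 0.33 log2 in the odor effect and -0.31 in GFP- cells, and Olfr1453 to -0.31 in GFP- cells; both are at the background. The cause was not tested for the others. Signals near the background limit every fold given as a lower bound.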
